A study of Danio rerio with 17 samples.

Results

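Crystallins are the structural proteins of the eye lens, and their transcripts were followed here in the brains of wild-type adult zebrafish (AB strain) after domoic acid (DA), a diatom toxin that acts on ionotropic glutamate receptors. The genes were chosen by name alone. They are all genes whose symbol on the array's annotation starts with cryaa, cryab, cryba, crybb or cryg, which leaves out the cryptochromes. The rule found 11 genes among the 8793 that carried a symbol of their own, each read by 1 probe set of the 15502 tested. They comprise 2 alpha crystallins, cryaa and cryaba, 2 beta crystallins, crybb1 and cryba4, and 7 gamma crystallins, crygs1, crygs2, crygm2c, crygm2f, crygm4, crygm6 and crygmxl2. A further 3 probe sets carried a crystallin symbol among several symbols and are described apart. RefSeq lists 57 genes that fit the same rule on the GRCz12tu assembly, 35 of them of the gamma M class, so most of the family was not read by a probe set of its own symbol here.

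The study's fish were 1 year old at a body cavity injection of either 1.1 µg DA per g of fish or the same volume of the phosphate-buffered vehicle. The brains were collected 24, 48 or 168 h later, and each array holds RNA pooled from 3 to 4 brains. There were 3 DA and 3 vehicle (control) arrays at 24 h, 3 DA and 2 control arrays at 48 h, and 3 DA and 3 control arrays at 168 h. The dose was symptomatic by the study's description, since fish swam abnormally soon after the injection and recovered within minutes. All groups share strain, housing and the injection itself, and no uninjected group was analysed. The labels give the tissue as brain and do not say how the eyes were parted from it.

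In vertebrates, alpha crystallins are small heat shock proteins that keep other lens proteins in solution, while beta and gamma crystallins form a second superfamily whose members pack densely and give the lens its refractive power. Fish lenses hold a large class of methionine-rich gamma M crystallins that goes with their hard, spherical shape. Lens fibre cells make crystallins in great amounts, and most members are used as markers of lens tissue, whereas alpha B crystallins are also known from muscle, heart and glia in mammals. In the order of genes on GRCz12tu, crybb1 and cryba4 are direct neighbours. Between crygm2c and crygm2f lie 25 protein-coding genes, all of which are crystallins.

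The array is the Affymetrix Zebrafish Genome array, and every value below is a probe set level on the log2 scale as deposited by the authors. Each array also carries 17 blank tag probe sets, artificial sequences of the manufacturer that match no zebrafish transcript and so show what a probe set reads without a target. Their mean lay between 4.94 and 5.18 on 16 arrays and at 5.74 on DA 24 h replicate 1, which stood apart from the rest. The brightest of them, TagIN-3, averaged 6.65, and the dimmest, TagE, 4.42. A level is called above blank on an array when it exceeds every blank tag probe set of that array. Probe sets differ in how strongly they bind, so the level of a gene is set against the blanks only as a guide and is not set against that of another gene. The brain label was checked with 15 measured genes of neurons and glia, of which 14 were above blank on all 17 arrays, led by the myelin gene mbpa at a mean of 13.89.

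Among the crystallins, 7 of 11 lay within the range of the blanks on every array. Of the others, cryaa was above it on 8 arrays, crygm6 below it on 17, crygm2c below it on 2 and crygs1 below it on 1. The top of this range was set by 1 blank, TagIN-3, and the next brightest, TagIN-5, averaged 5.54. The means of cryaa, crybb1, crygmxl2, crygm4 and crygs2 were each above those of 16 of the 17 blanks. Of the 11 genes, 0 were above blank on all 17 arrays, against 34.3% of all probe sets tested, and 1, cryaa, was above blank on at least 1 array. On each array the share of all probe sets above blank was between 37.8% and 47.3%, and at most 1 crystallin was. Against the mean of the blanks instead of the brightest, 6 of the 11 were above it on all 17 arrays, against 58.5% of all probe sets tested, and 4 were above their median, against 57.3%. Only cryaa was above the mean plus 2 SD of the blanks on all arrays, as were 37.7% of all probe sets. The other 5, cryaba, crygs1, crygm2c, crygm2f and crygm6, were above that mean on at most 1 array each. In pooled brains fewer cells of a type and less RNA per cell cannot be told apart, and at these levels a low transcript cannot be told from none.

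**Figure D1:**
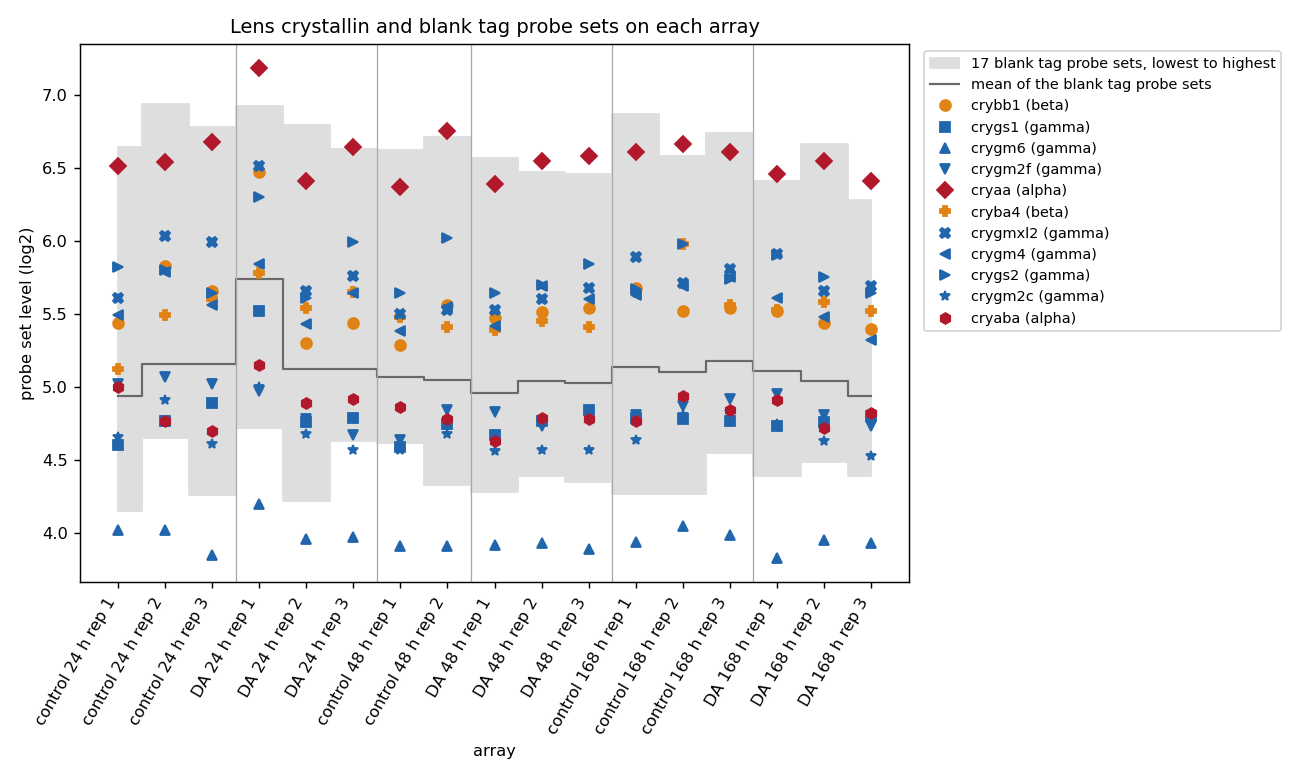
Level (log2) of the 11 crystallin probe sets on each of the 17 arrays, ordered by time and treatment, with colours for the alpha, beta and gamma classes. The grey band spans the lowest to the highest of the 17 blank tag probe sets of each array and the line is their mean; cryaa lies near the top of the band, crygm6 below it, and DA 24 h replicate 1 carries most of the high values.

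Among the alpha crystallins, cryaa, the lens chaperone that mammals use almost only in the eye, gave the only values above blank. In 24 h brains it read 6.51, 6.54 and 6.68 in controls and 7.18, 6.41 and 6.64 in DA. In 48 h brains it read 6.37 and 6.75 in controls and 6.39, 6.55 and 6.58 in DA. In 168 h brains it read 6.61, 6.66 and 6.61 in controls and 6.46, 6.55 and 6.41 in DA. It was above blank on 8 of the 17 arrays. Among controls these were only control 48 h replicate 2 and control 168 h replicate 2, and the rest were DA arrays. The brightest blank itself ran from 6.28 on DA 168 h replicate 3 to 6.94 on control 24 h replicate 2. The highest level of cryaa was on DA 24 h replicate 1, and the other 16 arrays lay between 6.37 and 6.75. The order of its group means ran from 6.74 ± 0.39 (SD, n = 3) in DA at 24 h through 6.63 ± 0.03 (SD, n = 3) in controls at 168 h, 6.57 ± 0.09 (SD, n = 3) in controls at 24 h, 6.56 ± 0.27 (SD, n = 2) in controls at 48 h and 6.50 ± 0.10 (SD, n = 3) in DA at 48 h to 6.47 ± 0.07 (SD, n = 3) in DA at 168 h. Each step between neighbours in this order was smaller than the larger SD of the pair.

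cryaba, the only alpha B crystallin with a probe set of its own symbol here, did not stand out from the blanks. It lay 0.27 below the mean of the blanks on average (a difference of -0.27) and ranged from 4.63 to 5.15 over the 17 arrays. Among the small heat shock proteins outside the crystallins that the array measures, hspb6 was above blank on 17 arrays and averaged 7.49, hspb1 was above blank on 16 and hspb8 on 0.

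Both beta crystallins lay above the mean of the blanks, by 0.45 for crybb1 and 0.43 for cryba4 on average, and below the brightest blank. crybb1, a major structural crystallin, was above the mean of the blanks on 17 arrays and above every blank on 0. It read 5.44, 5.83 and 5.66 in controls and 6.47, 5.30 and 5.44 in DA at 24 h, 5.29 and 5.56 in controls and 5.47, 5.51 and 5.54 in DA at 48 h, and 5.68, 5.52 and 5.54 in controls and 5.52, 5.44 and 5.40 in DA at 168 h. It had the largest SD over the 17 arrays, 0.27, which was 0.14 without DA 24 h replicate 1. cryba4, its neighbour in the genome, is read by a probe set of the suffix _a_at, which can bind several transcripts of a gene. It read 5.12, 5.49 and 5.60 in controls and 5.78, 5.54 and 5.65 in DA at 24 h, 5.48 and 5.41 in controls and 5.39, 5.45 and 5.41 in DA at 48 h, and 5.65, 5.98 and 5.56 in controls and 5.53, 5.58 and 5.52 in DA at 168 h. Its highest array was control 168 h replicate 2 and its lowest control 24 h replicate 1, both of them controls.

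The 7 gamma crystallins fell on both sides of the mean of the blanks. crygmxl2, crygs2 and crygm4 were above the mean of the blanks on 17 arrays. crygmxl2 read 5.61, 6.03 and 5.99 in controls and 6.51, 5.66 and 5.76 in DA at 24 h, 5.50 and 5.53 in controls and 5.53, 5.60 and 5.68 in DA at 48 h, and 5.89, 5.71 and 5.81 in controls and 5.91, 5.66 and 5.69 in DA at 168 h. Both 24 h groups and both 168 h groups overlapped, and the 48 h arrays were the lowest as a group. crygs2, a gamma S crystallin of the class that mammals also have, read 5.82, 5.80 and 5.64 in controls and 6.30, 5.61 and 5.99 in DA at 24 h, 5.64 and 6.02 in controls and 5.64, 5.70 and 5.84 in DA at 48 h, and 5.67, 5.98 and 5.74 in controls and 5.90, 5.75 and 5.64 in DA at 168 h. Its DA and control arrays overlapped at every time. crygm4 ranged from 5.32 to 5.84. The remaining gamma members lay below the mean of the blanks on nearly every array. crygs1, the other gamma S member, ranged from 4.59 to 4.89 on 16 arrays and stood at 5.52 on DA 24 h replicate 1. Its group means were 4.75 ± 0.15 (SD, n = 3) in controls and 5.02 ± 0.43 (SD, n = 3) in DA at 24 h, and from 4.67 to 4.78 in the other 4 groups. crygm2c ranged from 4.53 to 4.91 on the 16 arrays other than DA 24 h replicate 1, its highest. crygm6 was below every blank on 17 of 17 arrays, at 3.83 to 4.20, with group means from 3.90 to 4.04. The gamma M genes lie in runs of close copies, so a probe set named for a single copy may also bind its relatives, and levels of single gamma M genes are uncertain in that respect.

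The 3 probe sets that carry several symbols gave a like picture. A probe set with 12 symbols, 11 of them copies of the gamma M2d cluster, ranged from 5.05 to 5.46 on 16 arrays and stood at 6.02 on DA 24 h replicate 1. A second, with 7 symbols of that cluster and the suffix _x_at, which can bind related transcripts, ranged from 4.70 to 5.21 and did not stand out there, at 4.87. The third is shared between a gamma M gene and a gene outside the family and was above blank on 7 arrays, from 6.04 to 6.87, so its level cannot be assigned to a crystallin. Adding the 3 to the 11 genes, an alternative chosen after seeing the data, moved the medians given below by less than the SD of 0.12 between replicate arrays. That SD is larger than the medians of the 11 genes themselves. With the 3 added, the medians were 0.13 at 24 h, -0.01 at 48 h and -0.05 at 168 h.

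**Figure D2:**
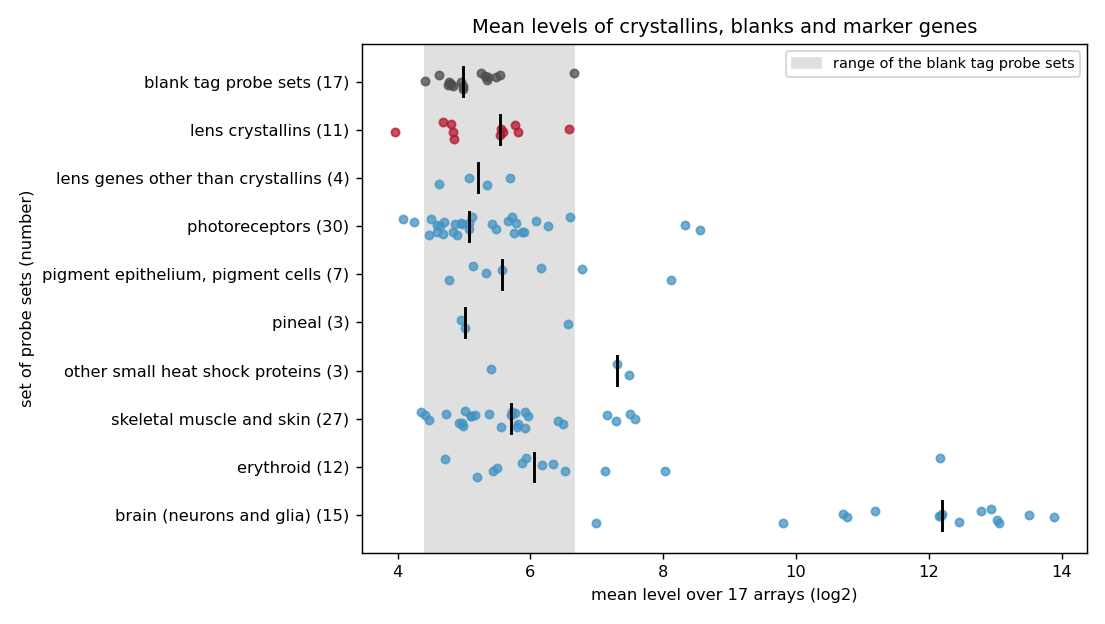
Mean level over the 17 arrays (log2) of the blank tag probe sets, the crystallins and the measured genes of each marker list, 1 point per probe set with the median as a bar; points are spread vertically for legibility. The grey band is the range of the blanks, from 4.42 to 6.65, and the crystallins lie in it except crygm6 below, while brain genes have a median of 12.19.

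Other genes of the lens were near the blanks as well. Of 22 lens genes other than crystallins in the list, 4 were measured. bfsp2 encodes a filament protein of lens fibres, gja3 and gja8b encode connexins of the lens and tdrd7a an RNA granule protein whose loss causes cataract in mammals. On the 16 arrays other than DA 24 h replicate 1, bfsp2 ranged from 4.40 to 4.84, gja3 from 5.32 to 5.85, gja8b from 5.19 to 5.55 and tdrd7a from 4.86 to 5.23, and 0 of the 4 were above blank on any of these arrays. Genes of the retina were mostly at that level, but not all. Of 30 photoreceptor genes, 23 were above blank on no array. Only 2 were above blank on all 17 arrays, the cone phosphodiesterase gene pde6ha at a mean of 8.55 and the retinol-binding gene rbp4l at 8.32. rpe65a, the retinoid isomerase of the pigment epithelium, was also above blank on all 17 arrays and averaged 8.12. In its list, 4 of 7 genes were above blank on no array. The pineal gene exorh averaged 6.57 and was above blank on 3 arrays. Which tissue these transcripts came from was not tested.

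DA 24 h replicate 1 carried the highest crystallin values of the study. All 11 crystallins were above their mean over the 16 other arrays. Thus 0 of 11 were at or below it, against 55.9% of all probe sets tested. The difference ran from 0.13 for crygm2f to 0.96 for crybb1, with a median of 0.34. For 9 of the 11 it was the highest of the 17 arrays, against 21.5% of all probe sets tested, the exceptions being crygm2f and cryba4. The blank tag probe sets moved with them. All 17 blanks were above their mean over the other arrays, by 0.28 to 1.24 with a median of 0.63, and 15 of the 17 were highest there. Dim probe sets as a whole moved less, since the 8734 probe sets whose mean lay within the range of the crystallins had a median of 0.07, with 34.3% of them highest on that array, and all probe sets had a median of -0.05. Of the 11 crystallins, 0 exceeded their mean over the other arrays by more than the blank that moved most, against 0.368% of all probe sets tested.

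Genes of the eye also stood high on that array. The lens connexin gja3 read 7.24 there against at most 5.85 elsewhere, a shift of 1.63 that was larger than that of any blank, as 0.368% of all probe sets tested had, and it was above blank on that array alone. The other 3 lens genes were highest there too, with gja8b at 6.09, tdrd7a at 5.40 and bfsp2 at 5.03. Of 30 photoreceptor genes, 24 were highest on that array and 7 shifted by more than any blank, up to 3.27 for the cone phosphodiesterase gene pde6c. The median shift was 0.61 for the 4 lens genes, 0.59 for the photoreceptor genes, 0.40 for 7 genes of the pigment epithelium and pigment cells and 0.49 for 3 pineal genes. None of these medians exceeded the 0.63 of the blanks. Genes of red blood cells shifted by a median of 0.30, those of muscle and skin by 0.14 and those of neurons and glia by 0.08. The genes of neurons and glia lie far above the blanks, at a median level of 12.19, so their shift is not a like comparison. The mean level of the lens list ran from 5.03 to 5.24 in controls and from 5.08 to 5.94 in DA at 24 h, and that of the photoreceptor list from 5.12 to 5.39 and from 5.19 to 6.22. The part of these genes and of the blanks in the crystallin values of this array was not tested.

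**Figure D3:**
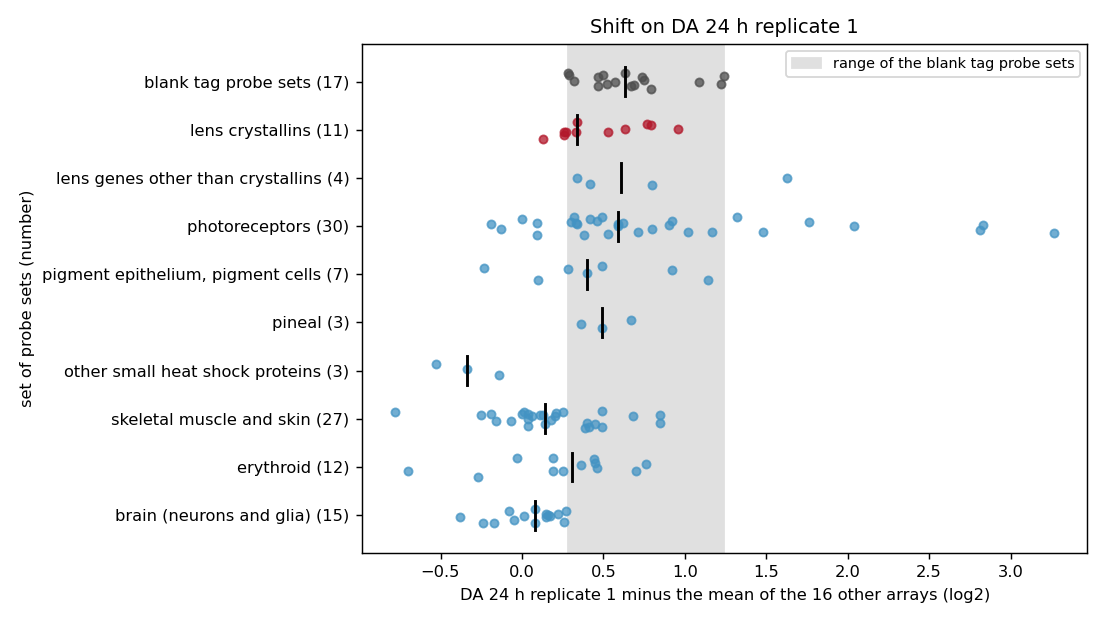
Level on DA 24 h replicate 1 minus the mean of the 16 other arrays (log2), 1 point per probe set, with the median of each set as a bar; points are spread vertically for legibility. The grey band is the range of the blank tag probe sets, 0.28 to 1.24; the 11 crystallins lie between 0.13 and 0.96, while gja3 and 7 photoreceptor genes exceed the band.

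On control 48 h replicate 1, some photoreceptor genes were also high. There pde6ha read 10.34, its second highest value after the 11.20 of DA 24 h replicate 1, and pde6c read 7.50 against 8.84. These genes were chosen after their values were seen, and the photoreceptor list as a whole had a median shift of 0.10 from the other arrays, against 0.59 on DA 24 h replicate 1. On the same array 5 of the 11 crystallins, cryaa, crybb1, crygs1, crygm2f and crygmxl2, had their lowest value of the study, against 8.99% of all probe sets tested. Its blanks averaged 5.07. Both pde6ha and pde6c were raised on other arrays too, at 9.32 and 6.65 on DA 48 h replicate 3 and at 9.07 and 6.68 on control 168 h replicate 3. The median shift of the crystallins from the other arrays was -0.03 on the former and 0.03 on the latter, against -0.22 on control 48 h replicate 1.

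Crystallin levels were set against that of the blanks from array to array. Of 11 correlations with the mean of the blanks over the 17 arrays, 9 passed on Pearson's r and 5 on Spearman's rho (permutation test, two-sided, Benjamini-Hochberg over the 11, adjusted p under 0.05). At an unadjusted permutation p under 0.05 with a positive sign, 9 of the 11 passed on r, against 21.3% of all probe sets tested, and 6 on rho, against 15.0%. Among the 8734 probe sets whose mean lay within the range of the crystallins the shares were 35.0% and 24.3%. The probe sets share the same arrays and are not independent. For crygmxl2, r was 0.88 (permutation p = 7e-05, adjusted p = 0.00077) and rho 0.73 (permutation p = 0.00119, adjusted p = 0.0131). Without DA 24 h replicate 1 and control 24 h replicate 1, the arrays with the highest and the lowest blank mean, its r over the 15 other arrays was 0.68. For crygm4 r was 0.66 (permutation p = 0.00042, adjusted p = 0.00172) with all arrays and 0.67 without those 2, with rho at 0.66 (permutation p = 0.00472, adjusted p = 0.0172). For crybb1 r was 0.88 (permutation p = 0.00185, adjusted p = 0.00509), with rho at 0.61 (permutation p = 0.0111, adjusted p = 0.0244), and r was 0.46 without them. For cryaa r was 0.84 (permutation p = 0.00293, adjusted p = 0.00539), with rho at 0.49 (permutation p = 0.0475, adjusted p = 0.0872), and r was 0.43 without them. For crygs1 r was 0.91 (permutation p = 0.00294, adjusted p = 0.00539), with rho at 0.38 (permutation p = 0.128, adjusted p = 0.201), and r was 0.25 without them. In cryaa and crygs1, where rho did not pass, r was lower without those 2 arrays, as it was in crybb1, where rho passed. Passing on r but not on rho was also seen in crygm6, crygs2 and cryaba. Their r was 0.23, 0.14 and 0.31 in that order without those 2 arrays. Without DA 24 h replicate 1 alone it was 0.04, 0.09 and 0.01. The reverse held for cryba4, with r at 0.54 (permutation p = 0.0636, adjusted p = 0.07) and rho at 0.65 (permutation p = 0.00568, adjusted p = 0.0172). crygm2c passed on both, with r at 0.75 (permutation p = 0.00047, adjusted p = 0.00172) and rho at 0.65 (permutation p = 0.00626, adjusted p = 0.0172). Its r was 0.64 without those 2 arrays. crygm2f had the lowest r, at 0.32 (permutation p = 0.221, adjusted p = 0.221). Crystallins and blanks share the hybridisation, scan and normalisation of each array.

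**Figure D4:**
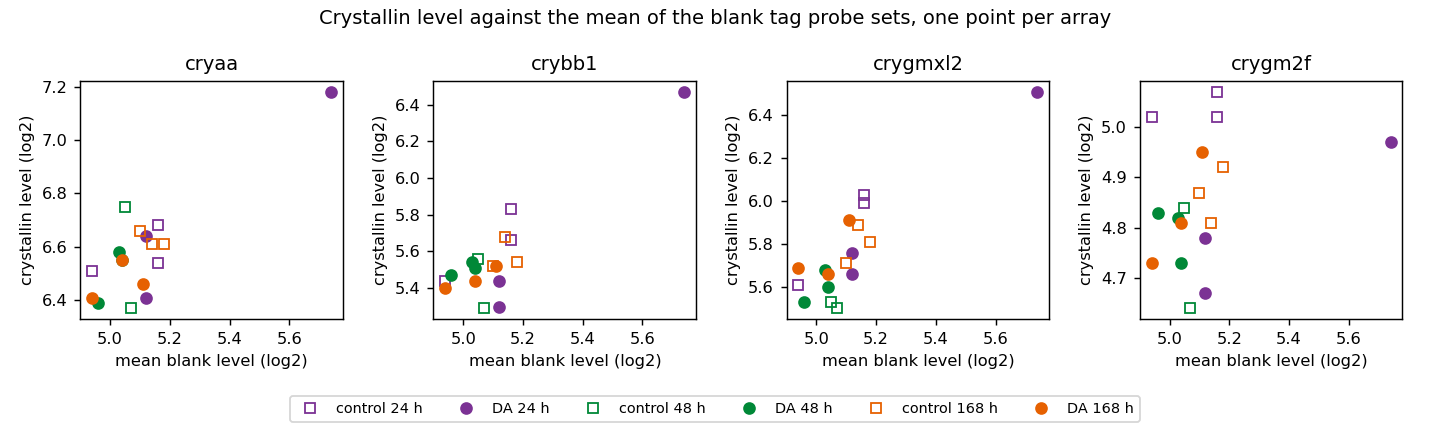
Level of cryaa, crybb1, crygmxl2 and crygm2f (log2, vertical axes of their own scale) against the mean of the 17 blank tag probe sets of the same array (log2), 1 point per array, with filled circles for DA and open squares for controls. DA 24 h replicate 1 lies alone at a blank mean of 5.74, and crygm2f alone of the 4 is not highest there.

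The crystallins also varied together across arrays, less so without that array. Over all 17 arrays the 55 pairs of crystallins had a median Pearson r of 0.57, with crybb1 and crygmxl2 the most alike at 0.90. Over the 16 other arrays the median was 0.31, and the pair was at 0.74. The genes outside the family whose pattern was most like that of cryaa over 17 arrays were fgg, cfap90, hoxc11b, me1 and ikzf1, with r of 0.92 to 0.93. None of these 5 was above blank on any array. Over 16 arrays they were cfap90 at 0.82, hoxc11b and fgg at 0.79, ulk1a at 0.78 and tnfsf10 at 0.77. For crybb1 they were wnt10a at 0.95 and ccdc181, ints15, magi2a and ncor1 at 0.94, and of these ncor1 alone was above blank on some arrays, 8 of 17. Over 16 arrays they were ncor1, acta1a and phf21aa at 0.84 and dlx4b and wt1a at 0.83. These likenesses are descriptions over arrays that share their normalisation.

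Whether DA changed crystallin levels at 24 h was asked with the fit over all arrays, and 0 of the 11 passed (limma, adjusted p under 0.05, against 0.0323% of all probe sets tested), with 1 at an unadjusted p under 0.05, against 13.4% of all. That 1 was lower in DA, as were 7.91% of all at the same threshold. That gene was crygm2f, of the gamma M class. It read 5.02, 5.07 and 5.02 in controls and 4.97, 4.78 and 4.67 in DA, so that every DA array was below every control array, which held for 7.92% of all probe sets. No crystallin had every DA array above every control array, against 4.86% of all. The difference was -0.23 with a 95% interval from -0.43 to -0.03 (SE 0.09, unadjusted p = 0.0283, adjusted p = 0.315, limma). Both groups lay within the range of the blanks. Without DA 24 h replicate 1 it was -0.31 (adjusted p = 0.109, limma), and it was -0.32 (adjusted p = 0.0789, limma) once the mean of the blanks entered the fit as a covariate. These are not separate checks, since that array lay far from the others in the covariate, at 5.74 against 4.94 to 5.18. In that covariate fit crybb1, at -0.31 (unadjusted p = 0.0105, adjusted p = 0.149, limma), was lower in DA as well. So was crygmxl2, at -0.22 (unadjusted p = 0.0202, adjusted p = 0.2, limma), while 5 of the 11 were higher.

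In the fit without the covariate, the 10 crystallins other than crygm2f were higher on average in DA at 24 h, against 51.8% of all probe sets. The median of the 11 was 0.10 against 0.01 over all probe sets tested. Next to crygm2f in order of p were cryba4 at 0.26 (adjusted p = 0.387, limma) and crygs1 at 0.27 (adjusted p = 0.458, limma). In crygs1 the DA arrays read 5.52, 4.76 and 4.79 against 4.60, 4.77 and 4.89 in controls, so that 1 DA array was above the controls and the others were among them. The blanks were higher in DA by 0.24 in the mean, with 15 of 17 above 0. With all arrays, photoreceptor genes were higher in DA in 27 of 30 (median 0.20) and the other lens genes in 4 of 4 (0.19). Genes of neurons and glia were higher in 8 of 15 (0.03). Without DA 24 h replicate 1, 5 of the 11 crystallins were higher, with a median of -0.05, and the blanks differed by 0.04. crybb1 went from 0.09 to -0.28 (unadjusted p = 0.0292, adjusted p = 0.260, limma), with DA arrays at 5.30 and 5.44 against 5.44 to 5.83 in controls.

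At 48 h, 0 of the 11 passed (limma, against 0.00% of all probe sets tested), and 0 had an unadjusted p under 0.05, against 4.73% of all. Of the 11, 6 were higher in DA, against 50.2% of all probe sets, with a median of 0.01 against 0.00 over all. The smallest unadjusted p belonged to crygm4, at 0.11 (5.42, 5.69 and 5.60 in DA against 5.38 and 5.55 in controls), cryaba, at -0.09, and crygs2, at -0.11 (adjusted p = 1 for each, limma). crygmxl2 was the only crystallin whose groups did not overlap, with 5.53, 5.60 and 5.68 in DA against 5.50 and 5.53 in controls, the shared 5.53 being a matter of rounding. With every DA array above every control array it was 1 of 11, against 13.3% of all probe sets, and 0 of 11 had every DA array below, against 14.0%.

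At 168 h the differences were small and of one sign. All 11 were below their control mean, against 57.3% of all probe sets tested, with a median of -0.09 against -0.02 over all. In limma 0 of the 11 passed (against 0.00% of all probe sets tested), and 0 had an unadjusted p under 0.05, against 3.02%. crygm4 was at -0.22 with a 95% interval from -0.47 to 0.04, cryba4 at -0.19 and crygm2c at -0.13 (adjusted p = 0.999 for each, limma). crygm4 read 5.63, 5.69 and 5.75 in controls and 5.61, 5.48 and 5.32 in DA. It and cryaa, at -0.15 (adjusted p = 0.999, limma), were the 2 of 11 with every DA array below every control array, against 7.02% of all probe sets, and 0 had every DA array above, against 3.85%. The blanks were lower in DA as well, by 0.12 in the mean (a difference of -0.12) and in 14 of 17, and so were 64.5% of the probe sets whose mean lay within the range of the crystallins. Other eye genes shared the direction. Photoreceptor genes were higher in DA in 1 of 30 (median -0.21) and the other lens genes in 1 of 4 (-0.10). For the pigment list it was 0 of 7 (-0.21), for pineal genes 0 of 3 (-0.24) and for muscle and skin 4 of 27 (-0.10). Genes of neurons and glia were higher in 8 of 15 (0.01). With the mean of the blanks as a covariate, 5 of the 11 were higher in DA, with a median of -0.01. Each gene has 1 slope for this covariate over all 17 arrays. DA 24 h replicate 1, with a blank mean of 5.74 against 4.94 to 5.18 elsewhere, weighs heavily in it. This adjustment thus does not rest on the 168 h arrays alone, and the part of the blanks in the differences at 168 h was not tested. Of the 6 arrays at this time, leaving out any 1 left 9 to 11 crystallins lower.

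**Figure D5:**
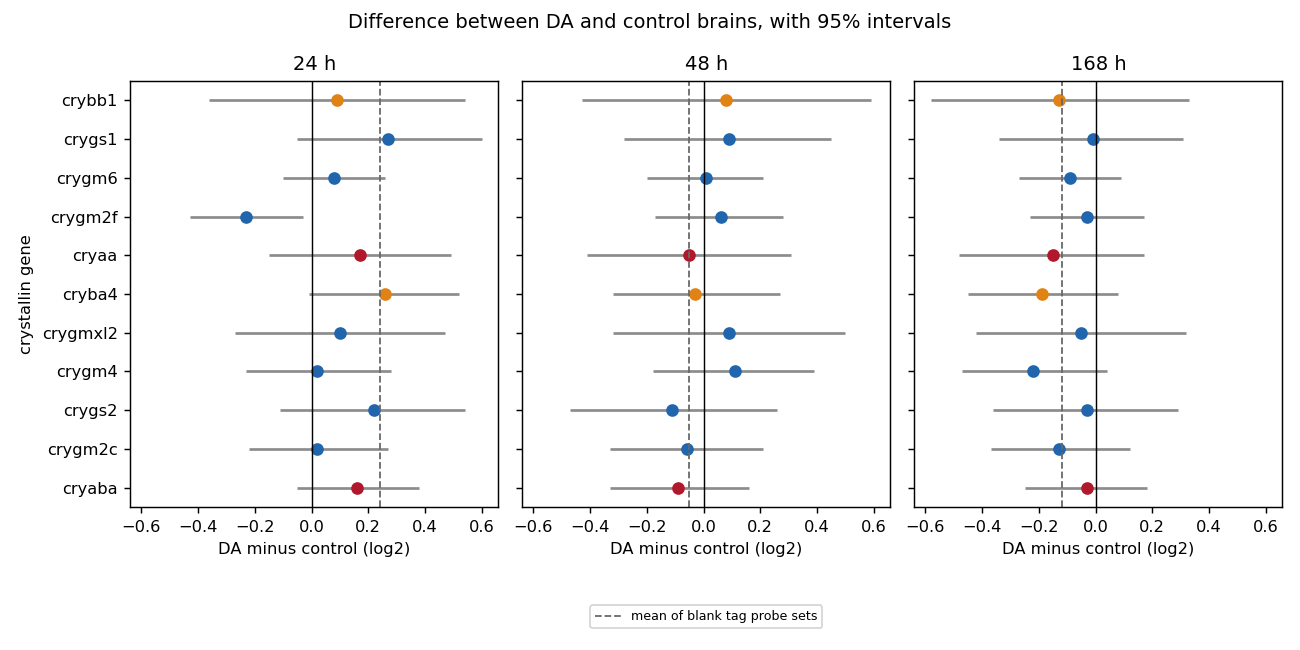
Difference between DA and control brains (log2) of each crystallin at 24, 48 and 168 h, with 95% intervals from limma as bars and the difference of the mean blank level as a dashed line. Every interval but that of crygm2f at 24 h spans 0, and at 168 h all 11 points lie below 0 with the blanks at -0.12.

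The intervals give, gene by gene, the differences compatible with the measured levels. They do not give what the arrays could have detected, and their range over the 11 genes has no joint coverage of 95%. Over the 11 crystallins the 95% intervals reached from -0.43 to 0.60 at 24 h, from -0.47 to 0.59 at 48 h and from -0.58 to 0.33 at 168 h, so that differences beyond 1.34-fold lower or 1.51-fold higher at 24 h lay outside every interval. These bounds depend on DA 24 h replicate 1, at the later times too, since each gene has 1 residual spread over all groups. The bounds of 0.59 at 48 h and -0.58 at 168 h were those of crybb1. Its SE was 0.24 and 0.21 at these times, and 0.11 and 0.10 without that array. For cryba4 at 168 h the SE was 0.12 either way. At 24 h without that array, crygm2f was at -0.31 (SE 0.09) and crybb1 at -0.28 (SE 0.11), while 5 of the 11 were higher in DA. Near the blanks a probe set's level understates the change in its transcript, so these bounds hold for the measured levels and not for the amount of RNA.

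Averaged over the 3 times, 0 of the 11 passed (limma, against 0.00% of all probe sets tested) and 0 had an unadjusted p under 0.05, against 7.68% of all. The DA effect did not differ between times for any of them past the threshold (0 of 11, limma F test, against 0.00% of all probe sets tested), with 0 at an unadjusted p under 0.05, against 6.26%. For 3 of the 11, crybb1, cryba4 and cryaba, every DA array lay on opposite sides of the control mean at a pair of times, against 21.2% of all probe sets tested. cryba4 came nearest to passing, with differences of 0.26 at 24 h, -0.03 at 48 h and -0.19 at 168 h (unadjusted p = 0.0684, adjusted p = 0.788, limma F test).

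Controls of the 3 times were compared as a measure of how far crystallin levels drift without the toxin. None of the 11 passed (0 of 11, limma F test, against 0.400% of all probe sets tested), and 2 had an unadjusted p under 0.05, against 11.7% of all. In crygm2f, controls read 5.04 ± 0.03 (SD, n = 3) at 24 h, 4.74 ± 0.14 (SD, n = 2) at 48 h and 4.86 ± 0.06 (SD, n = 3) at 168 h (unadjusted p = 0.0337, adjusted p = 0.366, limma F test). Its 24 h controls were thus the highest group of the study, and its DA arrays at 24 h, from 4.67 to 4.97, lay within the range of the later controls and DA arrays except at the top, where the highest was above 4.95. In cryba4, controls read 5.40 ± 0.25 (SD, n = 3), 5.44 ± 0.05 (SD, n = 2) and 5.73 ± 0.22 (SD, n = 3) in the same order (unadjusted p = 0.0415, adjusted p = 0.396, limma F test). Over all 11 genes and 6 groups, ordered by group mean, 3 of the 55 steps between neighbouring groups exceeded the larger SD of the pair, and the highest and lowest group means of a gene were 0.14 to 0.47 apart.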

How the data were processed

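RNA labelled with biotin was hybridised to 17 arrays by a core facility, per the labels. The authors deposited log2 values, 1 per probe set and array. Per the submitters' processing notes, oligo, RMA and limma were used, in versions not stated there. RMA corrects background and equalises arrays, so a shift shared by most transcripts is removed and dim values are compressed. Precision is limited by how many arrays there were.

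Of 15617 probe sets, 115 manufacturer controls were not tested. Members were taken by platform symbol, and all 11 were matched to RefSeq by Entrez number; overall 10795 probe sets carried 1 symbol, 135 several and 4572 none. No promoter or protein sequences were used here. Groups came from the sample titles. limma 3.58.1 in R 4.3.3 fitted 1 mean per group over all 17 arrays (11 residual and 4.39 prior degrees of freedom), with no filter, and Benjamini-Hochberg adjustment over 15502 probe sets at 0.05. The code was tested on simulated data for the 24 h comparison, where it recovered 99% of 200 probe sets shifted by 2 on the log2 scale among 15502. Shifts as small as the crystallin differences were not simulated, so this does not show how often those would be found. Replicates are pools the labels number separately, and limma p-values set a difference against the spread between pools within groups. Same-numbered arrays were not treated as pairs, since only 2 of 8 correlations of their deviations passed 0.1 (range -0.33 to 0.22). With so few arrays per group, this cannot show whether they were handled together. By the naming rule all 11 members are accounted for, with fuller values for the brightest, dimmest and most variable members and those of smallest p, the 5 likest genes of cryaa and crybb1, and up to 3 genes of highest mean per marker list; the eye genes that stood high on DA 24 h replicate 1 were named after their values were seen. Correlations with the blanks used 1e+05 permutations of all 17 arrays without regard to group, so their p-values do not rest on the spread between replicate pools. The members, lists and tests were chosen with earlier results of these data known. Alternatives were other scalings, filters on dim probe sets, a variance trend, array weights, a replicate block, the blank level as a covariate, only the groups compared, other thresholds and leaving out each array.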

Additional observations from a re-analysis of the deposited data

Results flagged for a closer look

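For 3 crystallins every DA array lay on one side of the control mean at one time and on the other side at another, as did 21.2% of all probe sets tested. crybb1 was at 0.08 at 48 h and -0.13 at 168 h, cryba4 at 0.26 at 24 h and -0.19 at 168 h, and cryaba at 0.16 at 24 h and -0.09 at 48 h (log2, DA minus control). The test of the difference between times did not pass for any of them (adjusted p = 0.947, 0.788 and 0.839 in that order, limma F test).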

How the results depend on the processing

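The counts of crystallins that passed were 0 in all 6 comparisons and stayed 0 under every alternative run for them, including the replicate block, an adjusted p under 0.10 and leaving out each of the 17 arrays. Only 6 crystallins remained to be counted above the mean blank level and 1 above the median of all probe sets. The lowest adjusted p over these alternatives was 0.0789, for crygm2f at 24 h with the blank level as a covariate. With the replicate block the medians of the difference were 0.10 at 24 h, 0.03 at 48 h and -0.09 at 168 h, and the block changed no call. The median at 24 h of 0.10 was -0.02 with array weights and -0.06 once the mean of the blanks was a covariate. With each array left out in turn it ran from -0.05 without DA 24 h replicate 1 to 0.26 without DA 24 h replicate 2. The medians at 48 h, from -0.04 to 0.11 with each array left out, and at 168 h, from -0.13 to -0.06, moved by less than the SD of 0.12 between replicate arrays under every alternative run. That SD is larger than the medians of 0.01 and -0.09 themselves, so this yardstick could not show a loss of the difference at 168 h. With the mean of the blanks as a covariate the median at 168 h was -0.01. The count of crystallins above blank on all arrays was 0, and 0 with each array left out. It was 1 above the mean plus 2 SD of the blanks, 4 above their median and 1 without the brightest blank, an alternative chosen after seeing the data.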
